A study of Mus musculus with 22 samples.

Results

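The 8 genes *Dclk1*, *Trpm5*, *Pou2f3*, *Il25*, *Gfi1b*, *Avil*, *Ptgs1* and *Alox5*, known as markers of tuft cells, were taken by gene symbol from a table of 52636 genes in 22 libraries of mouse duodenal organoids. Each symbol had 1 row, and none was set aside. The 8 genes did not move as 1 group after cold atmospheric plasma (CAP). *Ptgs1* and *Avil* were higher than in all 4 untreated libraries in 16 of the 18 treated libraries each. *Dclk1* was lower than in all 4 untreated libraries in 18 of 18, and *Pou2f3* in 13 of 18. Of all genes that pass a filter on low values, 3.55% were lower in 18 of 18 and 1.68% higher. Shares for 16 or 13 of 18 were not computed. *Trpm5* lay within or near the untreated range in most libraries, and *Il25* and *Gfi1b* were at a level of 2 or below everywhere.

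Tuft cells are scarce chemosensory cells of the gut epithelium. They depend on the transcription factor POU2F3. They sense luminal metabolites through G protein-coupled receptors and phospholipase C, which open the cation channel TRPM5. They signal to immune cells with interleukin-25, acetylcholine and eicosanoids, and the type 2 cytokine interleukin-13, released by innate lymphoid cells, in turn increases their number. Of the 8 genes, *Dclk1* (a microtubule-associated kinase), *Avil* (the actin-bundling protein advillin) and *Gfi1b* (a zinc finger repressor) are used as identity markers. *Ptgs1* (cyclooxygenase 1) and *Alox5* (5-lipoxygenase) open the prostaglandin and leukotriene pathways. The last pair is also known in platelets and leukocytes.

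The organoids were grown from duodenal epithelium of wild-type adult mice, without stroma or immune cells added, and each organoid line came from 1 mouse. Lines 1 to 4 each gave 1 untreated library, and lines 1, 2 and 4 each gave 1 library in every one of 6 treated groups, so a treated group has n = 3 and the untreated group n = 4. The labels give passage 12 for line 1, 14 for line 2 and 4 for lines 3 and 4. In direct CAP a helium plasma jet was held over the culture on day 1, with fresh medium given 30 min or 24 h later. For indirect CAP, medium was moved from another, plasma-treated organoid culture, and for plasma-activated medium (PAM) the medium was treated without cells, both given from day 1 or from day 2. By the paper, medium given from day 1 stayed 24 h, with fresh medium then until collection on day 3. Medium made on day 1 and given from day 2 stayed until collection. Between these groups, start day, time in fresh medium and age of the medium cannot be told apart. For both kinds of transferred medium the labels instead read 30 min (the groups from day 1) and 24 h (those from day 2), and the paper's times are used here. It is not certain at what time the organoids of direct CAP for 30 min were collected. The labels call the cells stem cells, and the stem cell marker *Lgr5* was present at 1281 to 2822 in the untreated libraries.

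A value below is a read count scaled by the authors to 20000000 reads per library and rounded up to whole numbers. A read was worth 0.697 to 1.03 in value, and 3 reads 2.09 to 3.10, the limit below which a level is not told from 0 here. Tests used limma with a mean-variance trend, on log2(value + 1). A gene is called where the adjusted p (Benjamini-Hochberg over all genes tested) is under 0.01 and the log2 fold change is 1 or larger in size. A gene entered a test only if 3 or more libraries of the comparison held a value of 10 or above, which left out *Dclk1*, *Il25* and *Gfi1b* in all comparisons with untreated and *Alox5* in some. All comparisons with untreated share the same 4 untreated libraries.

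The untreated libraries of lines 1 and 2 are in doubt. After removal of group means, the untreated library labelled line 1 correlated with a median r of 0.0751 with the 6 treated libraries of line 1 and of 0.541 with those of line 2. The untreated library labelled line 2 correlated at 0.132 with treated line 2 and at 0.353 with treated line 1. Untreated line 4 correlated at 0.597 with treated line 4. Results are therefore also given with both doubtful libraries left out, where that ends a call. The 9 libraries of the pooled comparison below come from 3 mice, and its limma test without the block takes them as independent.

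**Figure D1:**
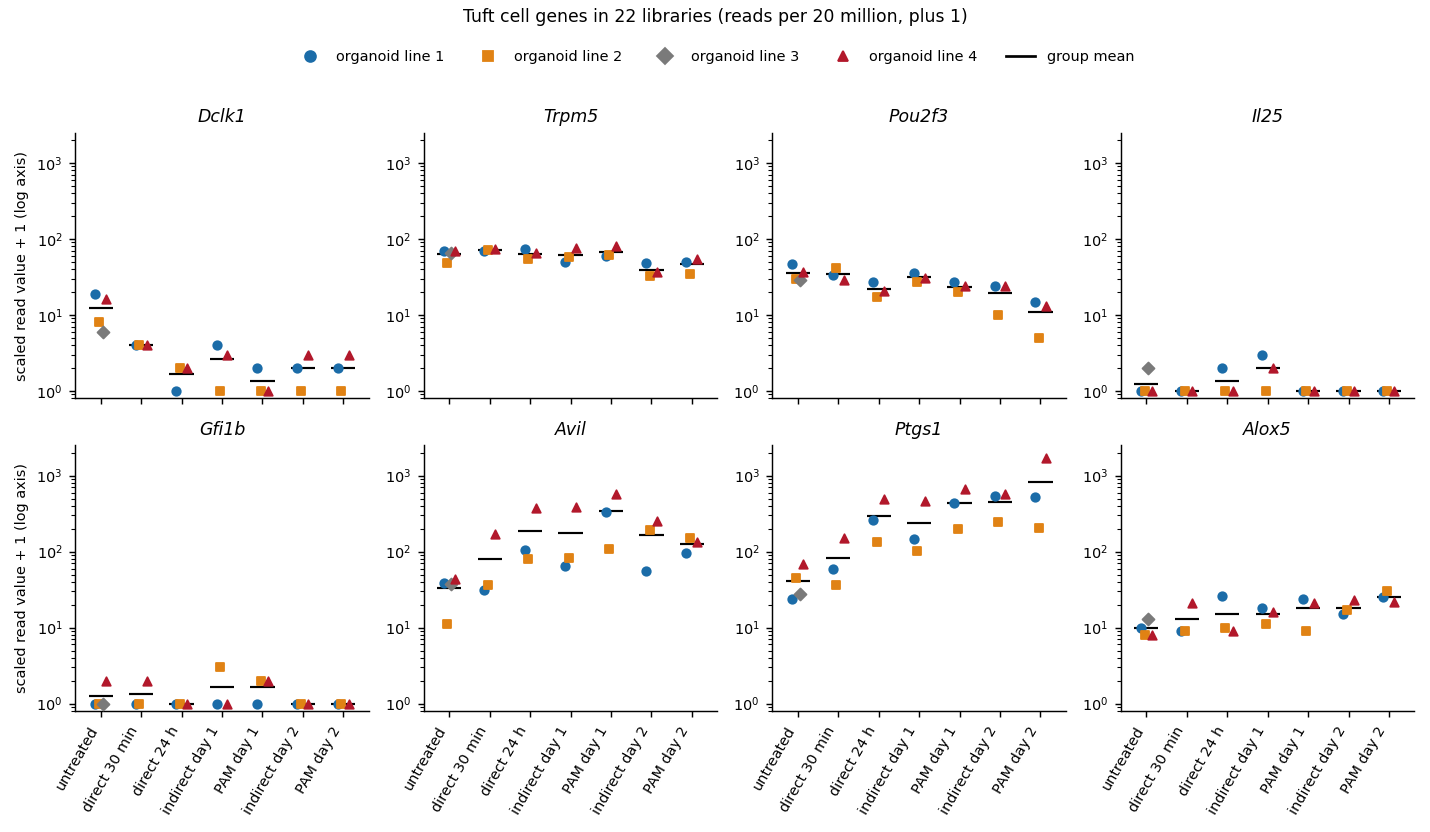
Value of each of the 8 genes in the 22 libraries (scaled reads plus 1, log axis), by group, with 1 symbol per organoid line and a bar at the group mean. *Ptgs1* spans 23 to 67 in untreated and up to 1730 in treated libraries, *Dclk1* spans 5 to 18 and 0 to 3, and *Il25* and *Gfi1b* stay at or below 2.

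Among the 8 genes, levels per kilobase of exon in the untreated libraries were highest for *Pou2f3* (mean 11.3 per kb), *Ptgs1* (10.4), *Trpm5* (9.81) and *Avil* (9.34). *Alox5* was at 2.13 per kb and *Dclk1* at 0.735 per kb. *Il25* (0.235 per kb) and *Gfi1b* (0.137 per kb) rest on a value of 1 in 1 library each. *Dclk1*, often used to stain tuft cells in the mouse, was thus among the lowest of the detected members per length. Its union of exons is the longest of the 8 (15296 bases), and division by that length lowers its level. Before the division its untreated mean (11.25) was above that of *Alox5* (8.75). In bulk RNA, fewer tuft cells and less of a transcript per cell cannot be told apart.

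*Ptgs1* lies on chromosome 2 at 36230426 to 36252272 (+ strand, GRCm38). The untreated libraries of lines 1 to 4 held 23, 44, 27 and 67. After direct CAP for 30 min lines 1, 2 and 4 held 59, 35 and 148, and after direct CAP for 24 h 256, 133 and 486. Only line 4 was above all untreated libraries at 30 min, whereas all 3 lines were after 24 h, as were 11.6% of all genes tested. With indirect CAP from day 1 the lines held 144, 102 and 465. PAM from day 1 gave 437, 200 and 666. From day 2, indirect CAP gave 532, 242 and 570, and PAM gave 516, 203 and 1730. Line 4 held the highest value in 6 of 6 treated groups and also among the untreated libraries.

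Against untreated, *Ptgs1* rose by 2.82 on the log2 scale in the 3 groups with 24 h of exposure from day 1 pooled (95% interval 1.80 to 3.83, adjusted p = 0.000915, limma, n = 9 against 4). Single groups gave 2.76 after direct CAP for 24 h (adjusted p = 0.00935, limma), 3.36 with PAM from day 1 (0.00100), 3.47 with indirect CAP from day 2 (0.000444) and 3.91 with PAM from day 2 (0.00259), all 4 past the threshold. Indirect CAP from day 1 was at 2.33 (1.10 to 3.57, adjusted p = 0.0224) and direct CAP for 30 min at 0.86 (-0.33 to 2.04, adjusted p = 0.334), both short of it. By fold change *Ptgs1* ranked between 31 and 82 from the top of 17335 to 18490 genes in the 6 comparisons other than that at 30 min. The call held in 15 of 15 alternatives with indirect CAP from day 2. After direct CAP for 24 h the call held in 5 of 15, while the difference stayed between 2.29 and 3.22. The call was lost without any 1 of the 4 untreated libraries and without treated line 1 or treated line 4. It was also lost without line 4 in both groups (adjusted p = 0.0253, limma), with quantile normalization (0.0106) and in a fit of all 7 groups (0.0136). Without both untreated lines 1 and 2 it was lost too, with the highest adjusted p (0.0822). Without the untreated libraries of lines 1 and 2 the pooled difference was 2.61 (adjusted p = 0.0282), that of PAM from day 1 was 3.16 (0.0129) and that of PAM from day 2 was 3.70 (0.0348), so these calls were lost.

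*Ptgs1* shares 148 bases of exon with *Gm43621* on the other strand that the annotation lists as a transcript still awaiting experimental evidence. *Gm43621* held 5 to 13 in untreated and 5 to 284 in treated libraries. Its value was 15.9% to 30.4% of that of *Ptgs1* in untreated and 13.7% to 20.0% in treated libraries, and over the 22 libraries it was the gene most like *Ptgs1* of 19370 (Pearson r = 0.988). Whether counting used the strand is not given in the sources used here, so reads of the pair cannot be told apart.

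**Figure D2:**
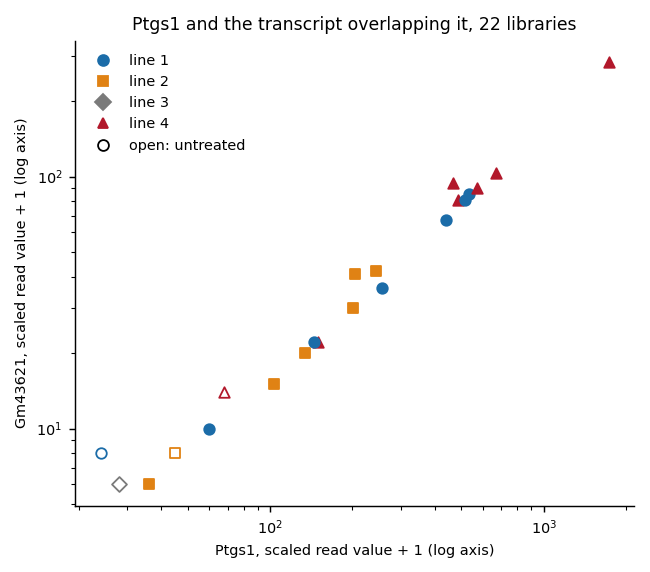
*Ptgs1* (x axis) against the overlapping *Gm43621* (y axis) in 22 libraries, both as scaled reads plus 1 on log axes, with open symbols for untreated libraries and 1 symbol per line. The 2 rise together, to 1730 and 284 in line 4 with PAM from day 2.

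*Avil* lies on chromosome 10 at 127000709 to 127020994 (+ strand). The untreated libraries of lines 1 to 4 held 38, 10, 37 and 42. Lines 1, 2 and 4 held 30, 35 and 170 after direct CAP for 30 min and 103, 80 and 378 after 24 h. Line 4 alone passed all untreated libraries at 30 min, and all 3 lines did at 24 h, as did 11.6% of all genes tested. With indirect CAP the lines held 63, 82 and 382 (from day 1) and 55, 193 and 252 (from day 2). With PAM they held 331, 108 and 577 (from day 1) and 94, 150 and 131 (from day 2). Line 4 was the highest in 5 of 6 groups, the exception being PAM from day 2, where line 2 was.

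*Avil* rose by 2.58 on the log2 scale in the pooled comparison (95% interval 1.29 to 3.87, adjusted p = 0.00561, limma), by 3.25 with PAM from day 1 (adjusted p = 0.00461) and by 2.10 with PAM from day 2 (adjusted p = 0.00874). It did not pass the threshold after direct CAP for 24 h (2.35, adjusted p = 0.0381), indirect CAP from day 1 (2.13, 0.0579), indirect CAP from day 2 (2.28, 0.0189) or direct CAP for 30 min (0.99, 0.392). Its calls rest on few libraries. The pooled call was lost without any 1 of the 4 untreated libraries, without line 4 (2.10, adjusted p = 0.0243) and without untreated lines 1 and 2 (2.09, adjusted p = 0.0909). With PAM from day 1 it held in 10 of 15 alternatives, and was lost without untreated line 3, treated line 1 or treated line 4, without line 4 in both groups (2.91, adjusted p = 0.0318) and without untreated lines 1 and 2 (2.77, 0.0268). With PAM from day 2 it held in 4 of 15, and was lost without untreated line 1, 3 or 4, without any 1 treated library, without line 4 in both groups (2.24, adjusted p = 0.0252), without untreated lines 1 and 2 (1.61, 0.0191), with no filter on low values (0.0119), in a fit of all 7 groups (0.0320) and with the line as a block (0.0207). With indirect CAP from day 2 it was called when treated line 1 was left out (2.94, adjusted p = 0.00645). *Avil* shares 165 bases of exon with *Tsfm*, a mitochondrial elongation factor on the other strand, which was lower in 18 of 18 treated libraries (472 to 817) than in the untreated (866 to 1114), opposite to *Avil*.

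*Ptgs1* and *Avil* moved in the same direction, so the bases before their starts are shown (RefSeq, GRCm38.p6, + strand, 5′ to 3′). The windows searched ran from 250 bases before to 50 after each start, on both strands, for the octamer ATGCAAAT, known for POU factors, and for the AP-1 letters TGANTCA, which do not overlap. Neither window held either motif, against 1.74% and 7.81% of 32851 promoters of the same length.
Ptgs1, chr2:36230176-36230425: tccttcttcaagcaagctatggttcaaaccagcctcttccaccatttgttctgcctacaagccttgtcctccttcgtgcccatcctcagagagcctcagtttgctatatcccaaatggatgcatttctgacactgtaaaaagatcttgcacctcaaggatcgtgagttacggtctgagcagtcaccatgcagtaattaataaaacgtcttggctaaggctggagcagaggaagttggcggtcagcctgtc
Avil, chr10:127000459-127000708: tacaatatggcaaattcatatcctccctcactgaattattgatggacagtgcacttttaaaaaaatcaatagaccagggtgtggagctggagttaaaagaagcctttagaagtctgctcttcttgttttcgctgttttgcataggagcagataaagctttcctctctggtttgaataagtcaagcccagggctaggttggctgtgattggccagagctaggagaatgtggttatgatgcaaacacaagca

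*Dclk1* lies on chromosome 3 at 55242364 to 55539068 (+ strand). It held 18, 7, 5 and 15 in the untreated libraries of lines 1 to 4. It held 3 in all 3 lines after direct CAP for 30 min and between 0 and 3 in the other 15 treated libraries, 6 of them at 0. No treated library reached any untreated one. Over all genes that pass the filter in the 22 libraries, 3.55% lay lower in every treated library and 1.68% higher, but *Dclk1* itself is too low to be among them.

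Taking a value as a read, the mean of *Dclk1* in treated libraries was 0.114 of that in untreated (95% exact interval 0.0656 to 0.192, which covers counting error only). With no filter on low values, limma put *Dclk1* at -2.73 in the pooled comparison (adjusted p = 0.000917), -3.12 with PAM from day 1 (0.00333) and -2.60 with indirect CAP from day 2 (0.00992), past the threshold, where that fit called 3.16%, 5.27% and 6.14% of all genes. It stayed short of the threshold in that fit after direct CAP for 24 h (-2.79, adjusted p = 0.0166), indirect CAP from day 1 (-2.26, 0.0440), PAM from day 2 (-2.60, 0.0103) and direct CAP for 30 min (-1.46, 0.191). At 0 to 3 reads, no order of the treated groups can be read.

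RefSeq lists 2 starts of *Dclk1*. The window at the second held 2 matches to the AP-1 letters, at -59 and -20, and that at the first held neither motif, as was so for *Trpm5*, *Gfi1b* and *Alox5*. Capitals mark the matches. Promoters of *Pou2f3* and *Il25* were not analysed here.
Dclk1, second start, chr3:55461478-55461727: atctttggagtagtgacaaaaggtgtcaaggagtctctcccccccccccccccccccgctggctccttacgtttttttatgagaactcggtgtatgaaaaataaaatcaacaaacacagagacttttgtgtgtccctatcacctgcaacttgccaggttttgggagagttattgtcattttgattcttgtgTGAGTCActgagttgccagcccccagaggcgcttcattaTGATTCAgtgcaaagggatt

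*Pou2f3* encodes the lineage factor of tuft cells and lies on chromosome 9 at 43123939 to 43210369 (- strand). The untreated libraries held 46, 29, 28 and 36. Direct CAP for 30 min gave 33, 41 and 28 in lines 1, 2 and 4, within the untreated range. The lines held 26, 16 and 20 after direct CAP for 24 h, 35, 26 and 30 with indirect CAP from day 1, and 26, 19 and 23 with PAM from day 1. All 3 libraries of direct CAP for 24 h and of PAM from day 1 lay below all untreated libraries, as did those of 19.1% and 29.7% of all genes tested. They held 23, 9 and 23 with indirect CAP from day 2. With PAM from day 2 they held 14, 4 and 12, the lowest of all groups.

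*Pou2f3* fell by 1.82 on the log2 scale with PAM from day 2 (95% interval -2.79 to -0.85, adjusted p = 0.00883, limma). This call held in 4 of 15 alternatives, and was lost without any 1 of the 4 untreated libraries, without treated line 2 or 4, without line 4 in both groups (-1.99, adjusted p = 0.0257), without untreated lines 1 and 2 (-1.72, 0.0734), with quantile normalization (0.0102), with no filter on low values (0.0148) and with untreated lines 1 and 2 exchanged in a block by line (0.0137). No other group passed the threshold. The log2 differences were -0.97 with indirect CAP from day 2 (adjusted p = 0.0612), -0.72 after direct CAP for 24 h (0.118), -0.58 with PAM from day 1 (0.104), -0.17 with indirect CAP from day 1 (0.641) and -0.02 after direct CAP for 30 min (0.971). *Gfi1b* (chromosome 2, 28609450 to 28621982, - strand) was at 0 in 17 of 22 libraries and at 2 at most.

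*Trpm5*, the taste-type cation channel, lies on chromosome 7 at 143069153 to 143094642 (- strand). It held 69, 48, 65 and 69 in untreated libraries. The 4 groups treated at or from day 1 together spanned 49 to 81, and no difference from untreated in them exceeded 0.18 on the log2 scale. Their 95% intervals reached from -0.57 to 0.60, so changes smaller than that are not excluded. From day 2, indirect CAP gave 48, 32 and 36 and PAM gave 49, 34 and 54, with log2 differences of -0.69 (adjusted p = 0.0358) and -0.46 (0.152), neither past the threshold. *Trpm5* shares 220 bases of exon with *Tssc4* on the other strand, which held 312 to 530 over the 22 libraries.

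*Alox5* lies on chromosome 6 at 116410077 to 116461178 (- strand) and held 9, 7, 12 and 7 in untreated libraries. Lines 1, 2 and 4 held 24, 29 and 21 with PAM from day 2, and it rose by 1.41 on the log2 scale there (95% interval 0.73 to 2.10, adjusted p = 0.00591, limma). *Alox5* passed the filter there through its treated libraries, as only line 3 of the untreated held 10 or above. All 3 libraries with indirect CAP from day 2 (14 to 22) were also above the untreated, as were those of 22.7% of all genes tested, with a difference of 0.92 (adjusted p = 0.0406) that missed the threshold. In the remaining groups *Alox5* spanned 8 to 25. The call with PAM from day 2 held in 4 of 15 alternatives, and was lost without untreated line 1, 2 or 4, without any 1 treated library, without line 4 in both groups (1.43, adjusted p = 0.0237), without untreated lines 1 and 2 (1.32, 0.0569), with no filter on low values (0.0145) and with the line as a block (0.0134). With a pseudocount of 10 in place of 1 the difference was 0.89, under the minimum fold change (adjusted p = 0.00382). *Alox5ap*, which encodes the protein that hands arachidonic acid to 5-lipoxygenase, was at 1 to 3 in untreated and 0 to 3 in treated libraries.

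*Il25*, the cytokine by which tuft cells call innate lymphoid cells, lies on chromosome 14 at 54932695 to 54935837 (+ strand). It was at 0 in 18 of 22 libraries, 3 of them untreated. Its highest value was 2, in line 1 with indirect CAP from day 1. This is below the worth of 3 reads, so no difference was detectable at this depth.

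**Figure D3:**
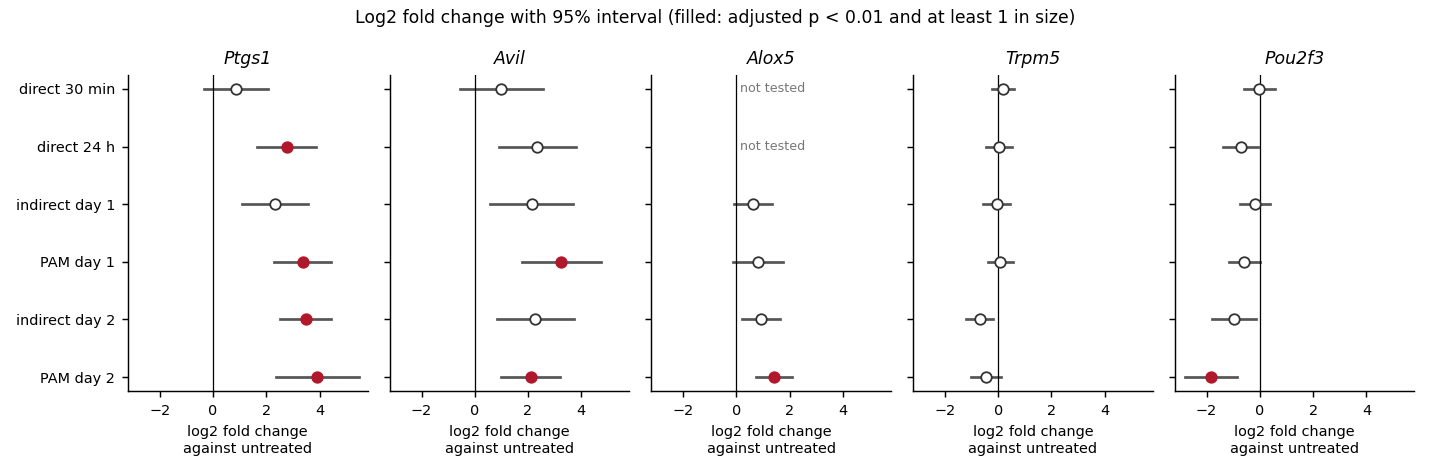
Log2 fold change against untreated (x axis) with its 95% interval for the 5 members that could be tested, in each treated group (y axis). Filled symbols passed the threshold, which *Ptgs1* did in 4 of 6 groups, *Avil* in 2, and *Alox5* and *Pou2f3* with PAM from day 2 alone.

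By comparison, 2 of 5 tested members were called in the pooled comparison, where 6.34% of 18490 genes were called. After direct CAP for 30 min 0 of 4 were called by limma, 0 of them at an unadjusted p under 0.05, against 0.00564% of all genes called and 24.9% at that unadjusted p. After direct CAP for 24 h 1 of 4 was called, against 2.17% of all genes. Indirect CAP from day 1 gave 0 of 5 in limma, with 2 at an unadjusted p under 0.05, against 1.31% of all genes called and 38.6% at that unadjusted p, and PAM from day 1 gave 2 of 5 against 10.2%. From day 2, indirect CAP gave 1 of 5 against 11.9% and PAM gave 4 of 5 against 17.3%. With the organoid line as a block, PAM from day 2 gave 2, *Ptgs1* (adjusted p = 0.00469) and *Pou2f3* (0.00956), while *Avil* (0.0207) and *Alox5* (0.0134) were lost. The medians of the members tested were between 0.52 and 1.41 on the log2 scale over these 7 comparisons, beside -0.13 to 0.02 over all genes. The filter tilts these counts and medians towards genes that rose. It left out *Dclk1*, which fell, and *Alox5*, where tested, passed it through its treated libraries.

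Between treated groups limma called 0 members in 5 comparisons without the block, and called at most 0.0111% of all genes, in indirect CAP from day 2 against day 1. Direct CAP for 24 h against 30 min called 0% of all genes, and so did indirect CAP and PAM from day 1 against direct CAP for 24 h, and PAM from day 2 against day 1. At an unadjusted p under 0.05 there was 1 member for 24 h against 30 min of direct CAP, beside 21.4% of all genes. Against 24 h of direct CAP there were 0 for indirect CAP (day 1), beside 6.95%, and 0 for PAM (day 1), beside 10.4%. For day 2 against day 1 there was 1 with indirect CAP, beside 21.7%, and 1 with PAM, beside 26.8%. *Ptgs1* was 1.90 higher on the log2 scale after direct CAP for 24 h than after 30 min (95% interval 0.49 to 3.31, adjusted p = 0.205, limma), and within lines, with the block, this difference was called (adjusted p = 0.00208). It was 1.14 higher with indirect CAP from day 2 than from day 1 (-0.25 to 2.52, adjusted p = 0.318), also called with the block (0.00672). Against direct CAP for 24 h, *Ptgs1* differed by -0.42 with indirect CAP from day 1 (-1.90 to 1.05) and by 0.60 with PAM from day 1 (-0.68 to 1.89). *Avil* differed by -1.16 between PAM from day 2 and from day 1 (-2.51 to 0.20, adjusted p = 0.246), and *Pou2f3* by -1.24 (-2.36 to -0.13, adjusted p = 0.153). With intervals this wide, a missed threshold does not show that the groups were alike.

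The order of the group means ran, for *Ptgs1*, from untreated (40.3 ± 20.0, SD, n = 4) through direct CAP for 30 min (80.7 ± 59.5, n = 3), indirect CAP from day 1 (237 ± 199), direct CAP for 24 h (292 ± 179), PAM from day 1 (434 ± 233) and, close to it, indirect CAP from day 2 (448 ± 179) to PAM from day 2 (816 ± 807). *Avil* ran from untreated (31.8 ± 14.7) through direct CAP for 30 min (78.3 ± 79.4) and PAM from day 2 (125 ± 28.5) up to PAM from day 1 (339 ± 235). For these genes and for *Pou2f3*, *Trpm5* and *Alox5*, the libraries of every pair of neighbours in the order overlapped. For *Dclk1*, untreated stood apart from the next group and the treated groups overlapped.

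Within each line, the ratio of a treated library to the untreated one of that line was above 1 in 17 of 18 pairs for *Ptgs1* (median 6.60), *Avil* (7.0) and *Alox5* (2.21). It was below 1 in 18 of 18 pairs for *Dclk1* (median 0.0611) and in 17 of 18 for *Pou2f3* (0.602). *Trpm5* was above 1 in 8 pairs and below in 10. The 18 pairs of a gene share 3 untreated libraries, 1 per line, so they are not independent. Ratios of *Alox5* rest on untreated values of 7 to 9, and those of *Avil* in line 2 on 10. The share of all genes with ratios so placed was not computed. With the doubtful untreated libraries of lines 1 and 2 exchanged, *Ptgs1* was above 1 in 18 of 18, *Avil* in 17, *Alox5* in 15, *Dclk1* below 1 in 18 and *Pou2f3* in 16.

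Over the 22 libraries, the profiles of *Avil* and *Ptgs1* correlated at r = 0.75 and those of *Pou2f3* and *Trpm5* at 0.67, while *Pou2f3* correlated at -0.36 with *Avil* and -0.48 with *Ptgs1*. After removal of group means these were 0.52, 0.59, -0.10 and 0.41, in the same order, so the sign for *Pou2f3* and *Ptgs1* turned. These values describe libraries that share treatment and line. The genes most like the mean profile of the 5 tested members were *Crybg1*, *Myo5c*, *Krt27*, *Spire1* and *Adam28* (r = 0.895 to 0.879 of 19370 genes). That mean joins members with opposed profiles, such as *Pou2f3* and *Ptgs1*, so likeness to it is not likeness to each of the 5. Most like *Ptgs1* after *Gm43621* were *Slc35e4* and *Mpi* (0.972 and 0.968). Most like *Avil* were *Arap2*, *Vill* and *Sh3pxd2a* (0.928 to 0.920), of which *Vill* encodes villin-like, a relative of advillin. *Pou2f3* was most like *Gm10184*, *H2afy* and *Dusp7* (0.932 to 0.931), *Trpm5* like *Phka2* and *Ccdc149*, among others (0.844 and 0.833), and *Alox5* like *Catsper4*, *Mx1* and *Kidins220* (0.850 to 0.839).

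Calls of genes outside the 8, here and below, are those with all libraries. Without untreated lines 1 and 2, almost no gene at all was called with PAM from day 2. In the chemosensory cascade, 3 of 11 genes were tested. *Gnat3*, the taste G protein alpha subunit, was at 0 in all 22 libraries, and *Plcb2* (phospholipase C beta) and *Chat* (acetylcholine synthesis) never exceeded 2. *Gng13*, a G protein gamma subunit, held 72 to 89 in untreated, 25 to 32 with indirect CAP from day 2 and 8 to 26 with PAM from day 2, and it fell by 1.41 (adjusted p = 0.000620, limma) and 2.46 (0.00144) there. *Tas1r3*, a subunit of sweet and umami receptors, held 81 to 112 in untreated and rose by 1.43 (adjusted p = 0.000429) with indirect CAP from day 2 and by 1.64 (0.00414) with PAM from day 2. These opposite calls were the only ones among the 3 genes tested in the 7 comparisons with untreated. *Rgs13*, a regulator of G protein signalling, held 4 to 7 in untreated and 0 to 2 in treated libraries, a ratio of 0.0404 (95% exact interval 0.0101 to 0.119, counting error only). It was named after its values were seen.

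Among the other genes of eicosanoid synthesis, 5 of 6 were tested. *Pla2g4a*, the phospholipase that frees arachidonic acid, held 1038 to 1143 in untreated, 204 to 519 with indirect CAP from day 2 and 143 to 372 with PAM from day 2. It fell by 1.60 (adjusted p = 0.00239, limma) and 2.09 (0.00107) there, opposite to *Ptgs1*, which takes its product. *Ptges*, a prostaglandin E synthase, held 4 to 10 in untreated and 25 to 45 with PAM from day 1, where it rose by 2.23 (adjusted p = 0.00188, limma), as it did in the pooled comparison (1.90, 0.00131). *Ptges* passed the filter there through its treated libraries, as its untreated values were 10 at most. *Hpgds*, the prostaglandin D synthase of tuft and immune cells, differed by line more than by treatment. It held 1374 in untreated line 4 and 587 to 1339 in treated line 4, 627 in line 3, and 33 to 65 in all libraries of lines 1 and 2.

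Of the transcription regulators 7 or 8 were tested. The most that fell were 4 of 7, with PAM from day 2, namely *Ascl2*, *Sox4*, *Sox9* and *Atoh1*, where 10.5% of all genes fell. *Sox4*, active in secretory progenitors, held 4104 to 6583 in untreated and 433 to 858 with PAM from day 2 (-2.85, adjusted p = 0.000338, limma). *Ascl2* held 386 to 729 and 21 to 158 (-2.88, adjusted p = 0.00540). These 4 also act in stem cells or in other secretory lineages. *1810046K07Rik* fell with indirect CAP from day 2 (-2.29, adjusted p = 0.000773), from 64 to 99 in untreated to 10 to 25.

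Of the cytokine and type 2 signalling genes, *Il4ra*, a subunit of the interleukin-4 and interleukin-13 receptors, rose with PAM from day 1 (1.38, adjusted p = 0.000182, limma), from 523 to 694 in untreated to 1326 to 1600, and in the pooled comparison (1.01, 0.00160). *Stat6*, which acts below that receptor, held 2696 to 3150 in untreated and 2562 to 3284 in treated libraries. Of 9 tested cytoskeletal and surface genes, *Cd24a*, *Tmem176a* and *Tmem176b* fell in 4, 3 and 4 of the 6 treated groups and *Krt18* rose with PAM from day 1 (1.06, adjusted p = 0.000370). The genes that fell made up 0% of all genes tested after 30 min of direct CAP and 0.917% after 24 h, 0.477% and 5.71% with indirect CAP (day 1 and day 2), and 5.4% and 10.5% with PAM. *Tmem176b* held 1604 to 2087 in untreated and 414 to 641 with PAM from day 1 (-1.76, adjusted p = 0.000197). Of the haematopoietic-type signalling genes 0 of the 3 or 4 tested were called by limma in any group, with 0 to 3 at an unadjusted p under 0.05. All genes at that unadjusted p were 24.9% and 32.6% after direct CAP (30 min and 24 h), 38.6% and 52.1% with indirect CAP (day 1 and day 2), and 50.5% and 55.4% with PAM. The most abundant of the list, *Ptpn6*, held 303 to 359 in untreated and 227 to 384 in treated libraries. The rest of the list was too low to be tested in most groups, so 0 calls do not show it unchanged. Of these, *Sh2d7*, named after its values were seen, held 7 to 14 in untreated and 0 to 13 in treated libraries. It was below all untreated in 16 of 18, and the share of all genes so placed was not computed. *Lrmp*, also low, held 0 to 7 in untreated and 1 to 7 in treated libraries. With an untreated library at 0, no treated one could lie below. Where 5 or more of a tuft list were tested, its median ran from -1.37 to 0.92 on the log2 scale.

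**Figure D4:**
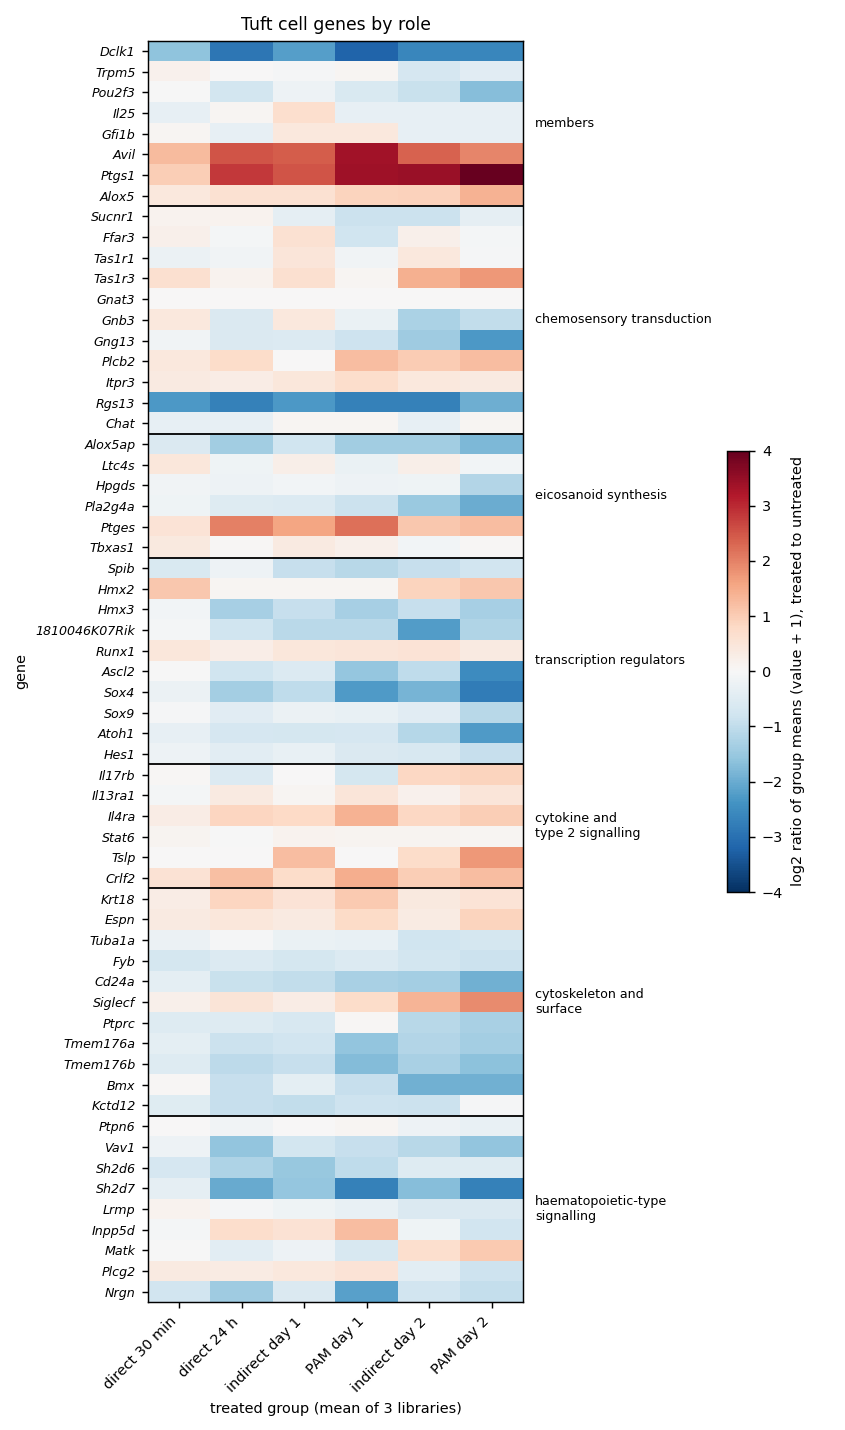
Log2 ratio of group mean plus 1 to untreated mean plus 1 (colour) for the 8 members and for wider tuft genes by role (rows) in 6 treated groups (columns, 3 libraries each). *Ptgs1* and *Avil* stand apart as high with *Dclk1* and *Rgs13* among the lowest, and genes with untreated means of a few reads, such as *Rgs13*, carry large counting error.

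Markers of other cells moved in the same libraries. The sum of 5 stem cell markers (*Lgr5*, *Olfm4*, *Smoc2*, *Axin2* and *Ascl2*) was 32557 to 38876 in untreated, 20274 to 32015 after direct CAP for 30 min, 5313 to 15040 after direct CAP for 24 h or indirect CAP from day 1, and 757 to 3953 in the other 3 groups. All 5 fell in each of those 3 groups, as did 5.4% (PAM, day 1), 5.71% (indirect CAP, day 2) and 10.5% (PAM, day 2) of all genes, and *Olfm4* fell by 5.78 on the log2 scale with PAM from day 2 (adjusted p = 0.000288, limma). The sum of the immune list was 913 to 1633 in untreated and 501 to 1359 in treated libraries and came mostly from *Kit* and *Csf1r*. Of its mast cell markers, *Cpa3* and *Ms4a2* were at 0 in all 22, while *Mcpt4* held 0 to 4 in untreated and 16 to 23 with PAM from day 1, where it rose (3.25 on the log2 scale, adjusted p = 0.00221, limma), as it did in the pooled comparison (2.47, 0.00343). In both, *Mcpt4* passed the filter only through treated libraries, so only a rise could be called. The macrophage marker *Cd68* held 16 to 27 in untreated and 25 to 86 in treated libraries. It rose in the pooled comparison (1.35, adjusted p = 0.000427, limma) and with PAM from day 1 (1.57, 0.00238) and day 2 (1.23, 0.00900). Other genes of the list did not share this. *Csf1r* held 255 to 269 in untreated and 241 to 334 in treated libraries, and 1 entry of *Itgam* held 10 to 68 and 1 to 62. *Kit* held 602 to 1233 in untreated and 59 to 975 in treated libraries, and it fell with PAM (-2.0 from day 1, adjusted p = 0.00723, limma, and -2.69 from day 2, 0.00131) and with indirect CAP from day 2 (-1.33, 0.00823). Mesenchymal and endothelial markers summed to 23 to 49 in untreated and 22 to 66 in treated libraries. Neuronal and glial markers summed to 51 to 70 and 18 to 63. Enterocyte markers summed to 96785 to 115867 in untreated and 72077 to 188681 in treated libraries, enteroendocrine markers to 2397 to 3929 and 1577 to 9987, goblet markers to 80005 to 138127 and 18935 to 194266, and Paneth markers to 30017 to 41590 and 4370 to 33950. Their part in the differences of the tuft genes was not tested.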

How the data were processed

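RNA from 22 libraries was sequenced as paired-end reads. According to the submitters' processing notes, the authors used Trimmomatic 0.36, STAR 2.5.3a on GRCm38 and HTSeq 0.9.1, and their methods name edgeR for tests. The deposited values are a score per gene, read counts that the authors scaled to 20000000 in each library and rounded up to whole numbers, not divided by gene length. Whole counts were not recovered, as several counts can round to 1 value, so no count test was run. Library depth was estimated from the spacing of low values at 19.4 to 28.7 (median 22.5), in units of 1000000 reads.

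Values were fitted as log2(value + 1) with limma 3.58.1 in R 4.3.3, for genes at 10 or above in 3 or more libraries of the comparison, and the method was tested on simulated data. Other values were computed in Python 3.11.15. Only compared groups entered a fit. The 8 genes, the lists and the tests were chosen with earlier results of these data known. Wider tuft genes were named where called in at least 2 of 6 comparisons, at most 4 per list, otherwise by the highest mean. Some further genes were named after their values were seen, as said or where 5 or fewer were called. Lines are mice, so the line pairs the libraries. The median correlation of deviations was 0.536 within lines (63 pairs) and -0.306 between lines. Annotation was GENCODE vM21 on GRCm38, which held all 8 genes. At most 0.627% of well-measured genes were equal in any of 24 pairs of libraries, so none was counted as a duplicate. Some genes are not reported here. P-values set a difference against the spread between these libraries. Without the block they leave the pairing by line unused. In the pooled comparison they also take libraries of the same mouse as independent.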

Additional observations from a re-analysis of the deposited data

Results flagged for a closer look

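Among the 4 untreated libraries, *Avil* had 1 library far from the others. Line 2 held 10 and the rest 37 to 42, a gap of 0.844 of the whole range, above Dixon's critical value for 4 samples. *Il25* and *Gfi1b* stood out in the same way, each with a ratio of 1.0, because 1 library held a value of 1 and the other 3 held 0. For normally spread values, chance gives such a gap in about 1 in 20 groups, and 8 genes were looked at. That rate does not apply to *Il25* and *Gfi1b*, as 1 library at 1 and the others at 0 always give a ratio of 1.0. The library of line 2 is 1 of the pair whose line is in doubt. Leaving it out lowered the *Avil* difference in the pooled comparison from 2.58 to 2.11 on the log2 scale, and the call was lost (adjusted p = 0.0270, limma).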

How the results depend on the processing

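Counts of members called depend on single libraries. Leaving out 1 library at a time gave 1 to 2 calls in the pooled comparison (2 with all libraries), 0 to 1 after direct CAP for 24 h (1), 1 to 2 with PAM from day 1 (2), 1 to 2 with indirect CAP from day 2 (1) and 1 to 2 with PAM from day 2 (4). Without untreated lines 1 and 2 there were 0 calls by limma in the pooled comparison, after direct CAP for 24 h and with PAM from day 1 or day 2. Without line 4, an alternative added after seeing the data, these had 1, 0, 1 and 1. After direct CAP for 24 h, quantile normalization and a fit of all 7 groups gave 0. With the line as a replicate block, PAM from day 2 had 2 calls, and direct CAP for 24 h against 30 min and indirect CAP from day 2 against day 1 had 1 each. With untreated lines 1 and 2 exchanged in the block, 24 h of direct CAP and both groups of indirect CAP had 2 each, and PAM from day 2 had 3, without *Pou2f3* (adjusted p = 0.0137). With no filter, the pooled comparison and PAM from day 1 had 3 each, with *Dclk1* added, indirect CAP from day 2 had 2 and PAM from day 2 had 1. At an adjusted p under 0.05 and no minimum fold, 24 h of direct CAP had 2, and indirect CAP had 1 from day 1 and 4 from day 2. The cause was not tested. The block changed no other call of a member.

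The number of all genes called moved as well. Without untreated lines 1 and 2 it went from 1173 to 148 in the pooled comparison, 376 to 0 after direct CAP for 24 h, 233 to 0 and 2127 to 1057 with indirect CAP (from day 1 and day 2), and 1775 to 866 and 3063 to 1 with PAM. Without line 4 these were 352, 31, 36, 1056, 707 and 1908. With 1 library left out the lowest were 651, 34, 25, 1357, 1134 and 2201. The exchanged block gave 497 after direct CAP for 30 min (1 without it), 1286 after 24 h and 1638 with indirect CAP from day 1. The block as labelled gave 200 for 24 h against 30 min of direct CAP (0 without it), 58 for PAM from day 1 against 24 h of direct CAP (0) and 623 for indirect CAP, day 2 against day 1 (2). A fit of all 7 groups gave 346 with indirect CAP from day 1, and, day 2 against day 1, 61 for indirect CAP and 882 for PAM (0). The lower p threshold with no minimum fold gave 6187, 2995, 3662, 7819, 7253 and 8419 in the order above, 44 for PAM from day 1 against direct CAP and 607 for indirect CAP, day 2 against day 1.

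Signs turned for small log2 differences. Quantile normalization put *Trpm5* at -0.051 in the pooled comparison, -0.0066 after direct CAP for 30 min and 0.0058 for 24 h against 30 min, and *Alox5* at -0.25 for indirect CAP (day 1) against 24 h of direct CAP. Without untreated lines 1 and 2, *Trpm5* was at -0.094 in the pooled comparison, -0.090 after direct CAP for 24 h and -0.022 with PAM from day 1, and *Pou2f3* at 0.079 after direct CAP for 30 min. Without line 4, *Trpm5* was at -0.049 in the pooled comparison, -0.011 with PAM from day 1 and -0.054 for PAM (day 1) against 24 h of direct CAP, *Pou2f3* at 0.13 after direct CAP for 30 min, and *Alox5* at -0.20 for indirect CAP (day 1) against 24 h of direct CAP. With 1 library left out, *Trpm5* ran from -0.11 to 0.063 in the pooled comparison, -0.10 to 0.14 after direct CAP for 24 h, -0.23 to 0.074 with indirect CAP and -0.061 to 0.16 with PAM from day 1, and *Pou2f3* from -0.16 to 0.12 after direct CAP for 30 min. Relative to 24 h of direct CAP, indirect CAP (day 1) ran from -1.01 to 0.47 for *Avil*, -1.07 to 0.041 for *Ptgs1*, -0.13 to 0.63 for *Alox5* and -0.25 to 0.057 for *Trpm5*, and PAM (day 1) from -0.078 to 0.17 for *Trpm5* and -0.020 to 0.31 for *Pou2f3*. Day 2 against day 1 ran from -0.35 to 0.94 for *Avil* with indirect CAP and -0.26 to 1.28 for *Ptgs1* with PAM. Of the 399 member differences with 1 library left out, 336 kept direction and side of the threshold.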
